A study of Caenorhabditis elegans with 9 samples.

Results

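The splicing regulators of the RBFOX, CELF, muscleblind and TIA families in *C. elegans* are represented in these data by 4 genes, *asd-1*, *etr-1*, *mbl-1* and *tiar-1*. They were taken by gene name, with earlier results of these data known, and each has 1 cassette exon among the 786 of the series, measured in all 9 libraries. RNA-Seq was performed on poly(A)-selected RNA of whole worms synchronized at the fourth larval stage (L4), with 3 biological replicates of each genotype. The genotypes were *smg-1* (TR1331), *smg-2* (CB4043) and wild-type (WT), with N2 given as the strain of all of them. Each mutant is 1 strain, so the effect of the mutated gene and of anything else that differs in that strain cannot be told apart. In whole animals, a change within a cell and a change in the share of a cell type cannot be told apart either. Gene counts are not used here, so the loss of *smg-1* or *smg-2* in the labelled libraries was not checked, and markers of muscle or neurons were not examined.

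Nonsense-mediated mRNA decay (NMD) removes transcripts whose reading frame stops early, upstream of an exon junction. *smg-1* encodes a kinase and *smg-2* an RNA helicase of this pathway, and a transcript that NMD removes accumulates when either is lost. Splicing regulators bind short motifs in and around exons and thereby favour their inclusion or skipping, and many also act on the splicing of their own transcripts. RBFOX proteins bind UGCAUG, CELF proteins bind GU-rich RNA, muscleblind proteins bind YGCY elements (where Y is a pyrimidine) and TIA proteins bind U-rich RNA downstream of 5' splice sites. In *C. elegans*, *asd-1* encodes an RBFOX protein that acts on muscle-specific splicing of a fibroblast growth factor receptor. *etr-1* encodes a CELF protein needed in muscle, *mbl-1* encodes the worm muscleblind, and *tiar-1* encodes a TIA-family protein that is a component of stress granules.

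The exons differ in their effect on the reading frame, and their sequences are shown because the frame decides which isoform carries an early stop. Positions are on the WBcel235 genome, on which all 1570 introns beside the 785 exons with a usable position began with GT or GC and ended with AG. The exon of *asd-1* lies on the plus strand at chrIII:4198869-4199115 and is 247 nt long, which is not a multiple of 3. It is exon 2 of transcript R74.5a.1, and its bases hold no early stop in that transcript.
asd-1 exon: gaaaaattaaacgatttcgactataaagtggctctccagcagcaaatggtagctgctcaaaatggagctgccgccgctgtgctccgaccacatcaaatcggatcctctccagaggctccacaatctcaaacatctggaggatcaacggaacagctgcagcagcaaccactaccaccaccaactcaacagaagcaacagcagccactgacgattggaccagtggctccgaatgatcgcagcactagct

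With this exon, R74.5a.1 encoded 404 amino acids, and without it the frame closed after 44 codons. The early stop lay 102 nt past the junction and 596 nt before the final exon junction complex, which was placed 25 nt 5' of the last junction. The last 21 bases of the upstream exon and the downstream exon up to that stop (in capitals) show the shifted frame.
asd-1 without the exon: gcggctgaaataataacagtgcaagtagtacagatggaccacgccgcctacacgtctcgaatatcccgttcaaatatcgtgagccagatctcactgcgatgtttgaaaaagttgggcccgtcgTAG

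Annotation also lists 1 *asd-1* transcript that skips the exon, R74.5b.1, whose coding sequence starts downstream of it and encodes 286 amino acids with or without the exon. In 3 further *asd-1* transcripts, an exon with other ends overlaps it. The prediction of an early stop therefore applies to the start codon of R74.5a.1, and the deposited junction reads do not show which start codon was used.

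The exon of *etr-1* lies on the plus strand at chrII:166071-166150 and is 80 nt long. It is present in 22 of the 32 annotated transcripts, and 3 others join its neighbours directly. In the 19 coding transcripts that hold it between these neighbours, the protein was 389 to 589 amino acids long with the exon. Without it, the frame of all 19 closed after 69 or 193 codons, 32 nt past the junction and 727 to 1120 nt before the final exon junction complex. The 3 transcripts annotated without the exon start in another frame, encode 347 to 422 amino acids, and would close after 47 codons if the exon were added. In the exon below, capitals mark the stop codon of that other frame, and in the sequence across the skipping junction they mark the early stop.
etr-1 exon: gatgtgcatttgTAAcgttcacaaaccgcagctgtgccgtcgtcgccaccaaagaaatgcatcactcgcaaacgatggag
etr-1 without the exon: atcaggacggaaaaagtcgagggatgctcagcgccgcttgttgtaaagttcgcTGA

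The exon of *tiar-1* lies on the minus strand at chrII:5714293-5714356 and is 64 nt long. Here the isoform with the early stop was the one that includes the exon, the opposite of *asd-1* and *etr-1*. Transcript C18A3.5a.1, annotated without the exon, encoded 408 amino acids. With the exon added it closed after 103 codons, 669 nt before the final exon junction complex, and C18A3.5c.1 is annotated with the exon and the same stop. The stop codon, in capitals, ends 8 nt into the next exon.
tiar-1 exon and the start of the next exon: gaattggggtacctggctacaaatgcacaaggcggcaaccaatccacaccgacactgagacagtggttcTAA

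The exon of *mbl-1* lies on the plus strand at chrX:17006973-17007197 and, at 225 nt, is the only one of the 4 that keeps the frame. It is present in 5 of the 10 annotated transcripts and skipped in the other 5. In the 8 transcripts that hold both neighbouring splice sites, the protein was 306 to 374 amino acids long with the exon and 231 to 299 without it, and neither form stopped before the final exon junction complex. Capitals mark the YGCY tetramers TGCT and CGCT, while TGCC and CGCC, which the exon also holds, are not marked.
mbl-1 exon: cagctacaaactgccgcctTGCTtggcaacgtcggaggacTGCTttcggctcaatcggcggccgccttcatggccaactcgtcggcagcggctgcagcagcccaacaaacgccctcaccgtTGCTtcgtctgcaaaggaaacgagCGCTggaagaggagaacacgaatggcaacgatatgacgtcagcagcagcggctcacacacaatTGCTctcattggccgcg

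**Figure D1:**
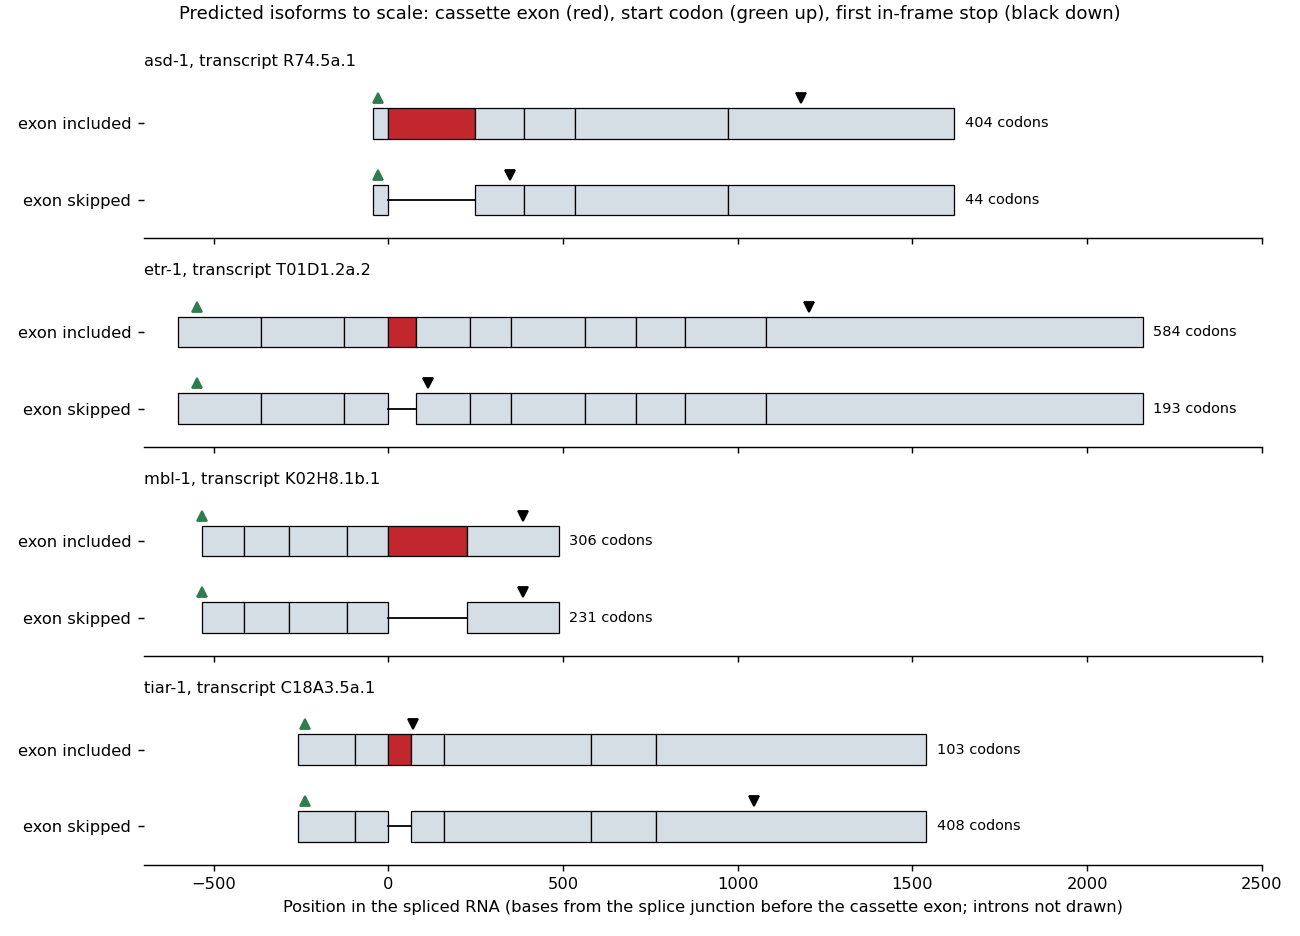
Predicted spliced RNAs of 1 transcript of each gene, drawn to scale in bases from the junction before the cassette exon, with the exon included (upper row) and skipped (lower row). Boxes are exons, red is the cassette exon, green triangles are start codons and black triangles the first in-frame stops. The early stop falls in the skipped form of *asd-1* (44 codons) and *etr-1* (193 codons) and in the included form of *tiar-1* (103 codons), and both forms of *mbl-1* end in the last exon.

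Inclusion was measured as Percent Spliced In (PSI), the percentage of junction reads of the event that did not skip the exon. An exon was called changed where mean PSI differed by more than 10 points and the Benjamini-Hochberg adjusted p of limma on logit PSI, taken over all exons tested, was under 0.05. Junction reads were summed in each library over the exons with skipping reads in it. They came to between 152916 and 319186 in the *smg-1* libraries and between 88652 and 208141 in the WT libraries. By the same rule, the *smg-2* libraries held 47438 to 123213 over the 498 exons of their comparison. In *smg-1* against WT, 12.8% of 782 exons were called, 6.27% with higher and 6.52% with lower PSI, and 2 of the 4 regulators were among them, both lower. In *smg-2* against WT, 15.1% of 498 exons were called, 6.83% with higher and 8.23% with lower PSI, and 3 of the 4 regulators were among them, 2 lower and 1 (*tiar-1*, whose call carries a limit given with its values) higher. These shares include exons with a WT mean under 5% (97 of 786 with *smg-1*, 40 of 498 with *smg-2*) or over 95% (111 and 39). No mutant mean lay there, so such exons could be in the data only if their PSI changed. The called shares, the shares without overlap given below and the ranks carry this limit. The 2 called lower in both mutants, *asd-1* and *etr-1*, had WT means of 93.0% and 91.0%. A rise of more than 10 points was thus not possible for them, and their shared direction is not a separate result. No p-value was taken over the 4 genes as a set.

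The *asd-1* exon was included in about as many reads as skipped it in both mutants, and in nearly all reads of WT. PSI was 47.5%, 51.9% and 53.0% in the *smg-1* libraries, 45.7%, 48.4% and 35.5% in the *smg-2* libraries, against 94.2%, 94.6% and 90.2% in the WT libraries. Every mutant library was below every WT library, with a gap of 37.2 points for *smg-1* and of 41.8 for *smg-2*. The *smg-1* mean was 50.8% ± 2.92 and the WT mean 93.0% ± 2.40 (SD, n = 3), a difference of -42.2 points (95% interval -48.3 to -36.1, adjusted p = 9.67e-04, limma). For *smg-2*, at 43.2% ± 6.83, the difference from WT was -49.8 points (-60.1 to -39.5, adjusted p = 8.42e-04, limma). Among the exons tested, these were the 12th largest fall of 782 in *smg-1* and the 6th largest of 498 in *smg-2*. The 3 libraries of mutant and WT did not overlap for 35.1% of 764 exons with *smg-1* and for 29.1% of 495 with *smg-2*.

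The reads behind *asd-1* were few in places. All read counts here take the WT and mutant names of the deposited count columns as exchanged, since only then did they fit the usage values. The usage names were kept, as the usage headed WT was equal in both mutants' tables in 1860 of 1860 values, and so were the counts headed as mutant. The skipping junction had 136, 65 and 54 reads in *smg-1*, 38, 33 and 40 in *smg-2*, against 5, 4 and 4 in WT. The inclusion junction had 123, 70 and 61 reads in *smg-1*, 32, 31 and 22 in *smg-2*, against 81, 70 and 37 in WT. The lowest PSI of a WT library, 90.2%, rested on 41 reads (95% Wilson interval 77.5% to 96.1%), and the highest of a mutant library, 53.0%, on 115 (44.0% to 61.9%), so these intervals did not meet. Such intervals cover counting error only.

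Splitting PSI into its parts showed a rise in the skipping reads of *asd-1*, while a change in its inclusion reads was not settled. Junction reads were scaled between libraries (TMM) and are given as CPM, counts per 1e+06 junction reads of the exons with skipping reads in every library. A read total could be rebuilt only for those, 671 exons with *smg-1* and 457 with *smg-2*. The values are thus levels relative to those junctions and not gene expression. Skipping reads of *asd-1* were 431, 311 and 362 CPM in *smg-1*, against 24.0, 52.5 and 26.4 in WT, a log2 fold change of 3.55 ± 0.38 (SE, adjusted p = 5.93e-04, edgeR). In *smg-2* they were 502, 281 and 919 CPM, against 28.1, 65.8 and 32.5 in WT under the scaling of that comparison, a log2 fold change of 3.82 ± 0.58 (adjusted p = 0.00144, edgeR). Over those exons, skipping reads were called higher for 9.39% of 671 in *smg-1*. The share was 9.63% of 457 in *smg-2*.

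Inclusion reads of *asd-1* did not pass the test in either mutant. Their log2 fold change was -0.41 ± 0.45 in *smg-1* (adjusted p = 0.653, edgeR) and -0.67 ± 0.50 in *smg-2* (adjusted p = 0.539, edgeR). WT replicate 2 stood above the other WT libraries here, with 918 CPM beside 388 and 244. Without it, the log2 fold change was 0.26 for *smg-1* against WT and 0.00014 for *smg-2* against WT, so the data do not settle whether the inclusion junction of *asd-1* was lower.

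**Figure D2:**
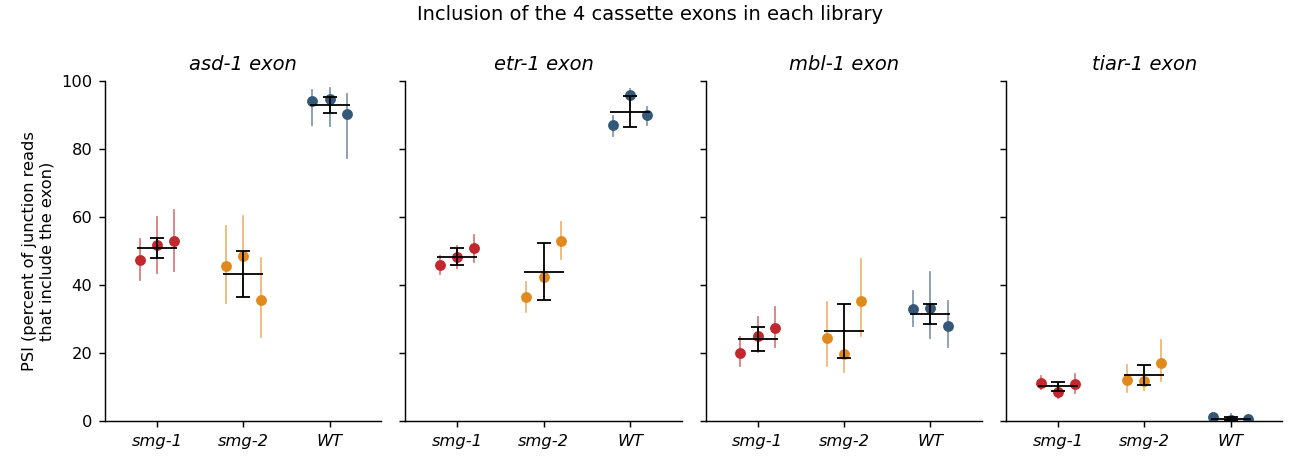
PSI (percent) of the 4 exons in each library, grouped as *smg-1*, *smg-2* and WT. Points are libraries with their 95% Wilson interval, and black bars are the mean ± SD of 3. The mutant libraries of *asd-1* and *etr-1* lie below 54% and those of WT above 86%, the *mbl-1* groups lie between 19% and 36%, and *tiar-1* is under 2% in WT and between 8% and 18% in the mutants.

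The *etr-1* exon behaved much as that of *asd-1* and was covered by more reads. PSI was 45.9%, 48.2% and 50.8% in *smg-1*, 36.3%, 42.3% and 53.0% in *smg-2*, against 87.0%, 95.9% and 90.1% in WT. No mutant library reached the lowest WT library, the gap being 36.2 points for *smg-1* and 34.01 for *smg-2*. A gap of any size was found for 35.1% of 764 exons with *smg-1* and for 29.1% of 495 with *smg-2*. The *smg-1* mean was 48.3% ± 2.46 and the WT mean 91.0% ± 4.52 (SD, n = 3), a difference of -42.7 points (95% interval -50.1 to -35.3, adjusted p = 0.00381, limma). For *smg-2*, at 43.9% ± 8.43, the difference from WT was -47.1 points (-59.6 to -34.6, adjusted p = 0.00361, limma). These falls ranked 11th of 782 and 8th of 498 exons.

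The skipping junction of *etr-1* had 750, 453 and 306 reads in *smg-1*, 305, 364 and 150 in *smg-2*, against 70, 10 and 48 in WT. After scaling, skipping reads were 2380, 2166 and 2054 CPM in *smg-1*, against 336, 131 and 317 in WT, a log2 fold change of 3.02 ± 0.35 (adjusted p = 6.36e-04, edgeR). In *smg-2* the log2 fold change was 3.43 ± 0.38 (adjusted p = 2.55e-04, edgeR). Inclusion reads of *etr-1* had log2 fold changes of -0.41 ± 0.22 in *smg-1* (adjusted p = 0.314) and -0.25 ± 0.32 in *smg-2* (adjusted p = 0.755), neither past the edgeR test. In *etr-1* as in *asd-1*, the reads that rose were those of the skipping junction. That junction is shared by the predicted forms with an early stop and by the annotated transcripts without one, R74.5b.1 of *asd-1* and 3 of *etr-1*, and the reads do not tell these apart.

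The *tiar-1* exon had higher PSI in the mutants than in WT. Its rise is described and not tested, because the deposited exons all had a mean PSI between 5.03% and 95% in *smg-1*, or between 5.39% and 94.6% in *smg-2*, while WT means covered 0% to 100%. An exon with the WT level of *tiar-1* could thus be in these tables only if its PSI was higher in the mutants. PSI was 11.1%, 8.49% and 10.8% in *smg-1*, 12.03%, 11.8% and 17.0% in *smg-2*, against 1.26%, 0.34% and 0.44% in WT. All 6 mutant libraries were above all WT libraries, with gaps of 7.23 points for *smg-1* and 10.5 for *smg-2*. Groups without overlap, in either direction, made up 35.1% of 764 exons with *smg-1* and 29.1% of 495 with *smg-2*. The means were 10.1% ± 1.43 in *smg-1* and 13.6% ± 2.95 in *smg-2*, against 0.68% ± 0.50 in WT (SD, n = 3), differences from WT of 9.45 and 12.9 points. The 10-point threshold was thus passed in *smg-2* and not in *smg-1*, where the difference was 10.3 points without *smg-1* replicate 2.

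In WT, *tiar-1* inclusion rested on 8 of 636, 1 of 290 and 2 of 458 reads, so the WT level is known only as a small share. The 95% Wilson intervals of these libraries reached up to 2.46%, 1.93% and 1.58%, below the lowest lower bound of a *smg-1* library, 6.65%, and of a *smg-2* library, 8.65%. Inclusion reads of *tiar-1* were 374, 287 and 336 CPM in *smg-1*, against 38.3, 13.1 and 13.2 in WT, a log2 fold change of 3.74 ± 0.43 (SE, edgeR). In *smg-2* the log2 fold change was 3.98 ± 0.50 (SE, edgeR). These are subject to the same limit. Over the exons with skipping reads in every library, inclusion reads were called higher for 9.69% of 671 in *smg-1* and for 8.75% of 457 in *smg-2*.

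The skipping reads of *tiar-1*, whose predicted form encodes the longer protein, had log2 fold changes of -0.14 ± 0.21 in *smg-1* (adjusted p = 0.749) and -0.38 ± 0.27 in *smg-2* (adjusted p = 0.504), neither past the edgeR test.

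**Figure D3:**
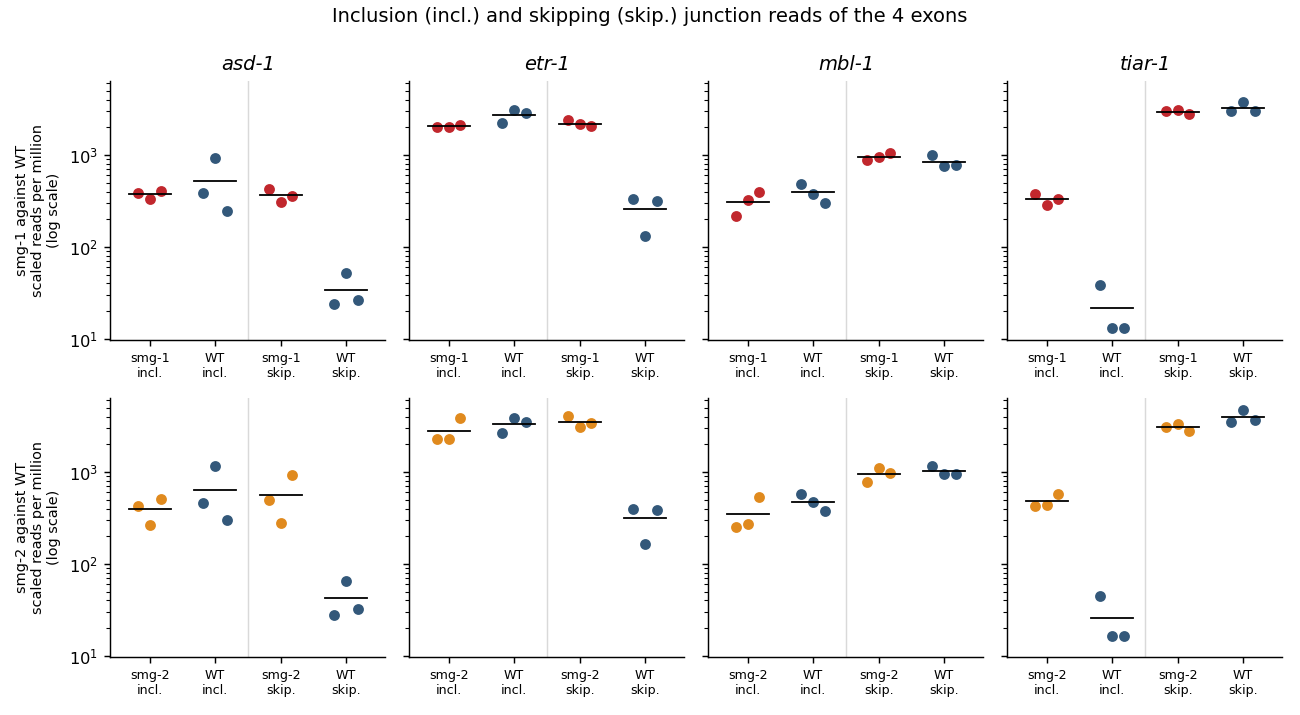
Scaled reads (CPM) over the inclusion and skipping junctions of each exon, on a log scale, for *smg-1* and WT (upper row) and *smg-2* and WT (lower row). Points are libraries and lines are means of 3. The skipping reads of *asd-1* and *etr-1* stand apart between mutant and WT, with log2 fold changes of 3.02 to 3.82. The inclusion reads of *tiar-1* do so as well (3.74 and 3.98), but are described and not tested, under the limit given with its values. The inclusion reads of *asd-1* and *etr-1*, the skipping reads of *tiar-1* and both junctions of *mbl-1* did not pass the edgeR test.

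The *mbl-1* exon was mostly skipped in all genotypes and was not called in either mutant. PSI was 20.1%, 25.1% and 27.2% in *smg-1*, 24.4%, 19.6% and 35.4% in *smg-2*, against 32.8%, 33.3% and 28.0% in WT. The *smg-1* libraries lay below the WT libraries by a gap of 0.86 points, and groups without overlap were found for 35.1% of 764 exons in that comparison. The *smg-2* libraries overlapped those of WT. The difference of *smg-1* from WT was -7.28 points (95% interval -14.2 to -0.32, adjusted p = 0.356, limma). That of *smg-2* was -4.94 points (-16.5 to 6.62, adjusted p = 0.684, limma). These intervals still allow a fall of more than 10 points in either mutant. The *mbl-1* junctions had 65 to 344 reads per library, and neither junction passed the edgeR test (log2 fold changes of -0.49 to 0.18).

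**Figure D4:**
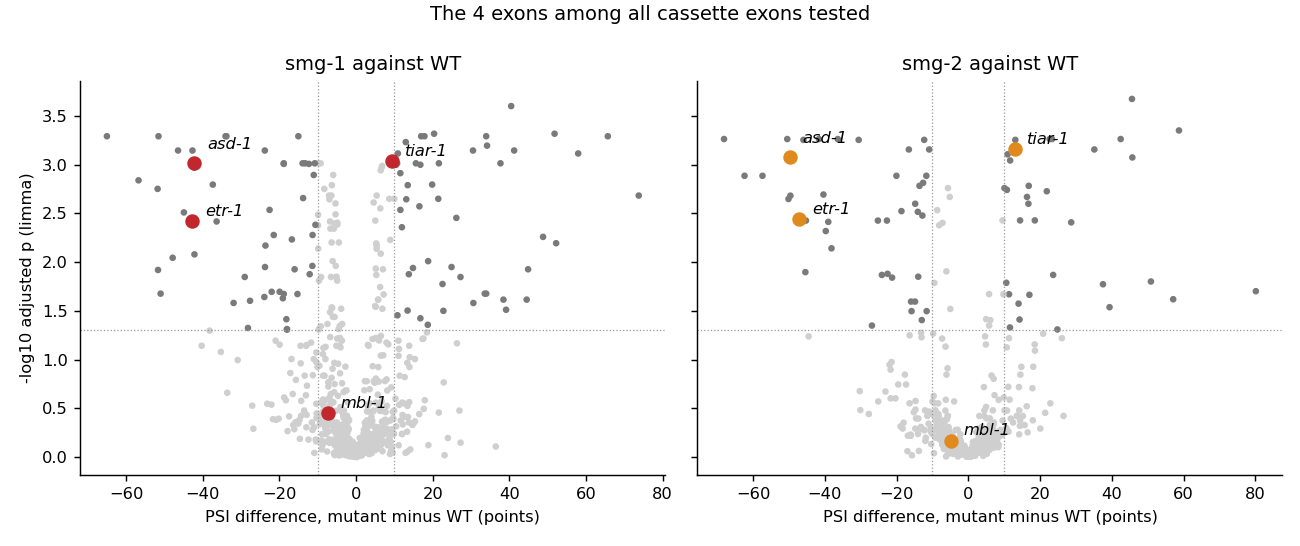
PSI difference (mutant minus WT, in points) against -log10 of the limma adjusted p for all exons tested in *smg-1* (left, 782 exons) and *smg-2* (right, 498 exons), with called exons in dark grey and the thresholds dotted. The 4 regulators are coloured: *asd-1* and *etr-1* lie among the largest falls, *tiar-1* near the 10-point threshold on the higher side, and *mbl-1* among the exons that were not called.

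The mutants were also compared directly. In *smg-2* against *smg-1*, 0 of 498 exons were called by limma, while 42 had an unadjusted p under 0.05 and edgeR on the inclusion and skipping reads called 3 of 482. None of the regulators was among the calls of either tool. PSI in *smg-2* minus that in *smg-1* was -7.58 points for *asd-1* (95% interval -17.5 to 2.31, adjusted p = 0.707, limma) and -4.43 points for *etr-1* (-15.5 to 6.61, adjusted p = 0.828, limma). It was 3.48 points for *tiar-1* (-3.53 to 10.5, adjusted p = 0.686, limma) and 2.34 points for *mbl-1* (-8.78 to 13.5, adjusted p = 0.904, limma). Between same-numbered libraries, this difference was -1.78, -3.41 and -17.6 points for *asd-1* and -9.56, -5.92 and 2.18 for *etr-1*. It was 0.92, 3.30 and 6.23 points for *tiar-1* and 4.30, -5.46 and 8.19 for *mbl-1*. All 3 pairs thus had one sign for *asd-1* and *tiar-1* and mixed signs for the others. The share of all exons with one sign in 3 pairs was not counted, so no difference between the mutants is read from these signs. The *tiar-1* libraries of the mutants did not overlap, by a gap of 0.68 points, as was the case for 16.9% of 497 exons. With the replicate number as a block, the adjusted p was 0.688 for *asd-1* and 0.638 for *tiar-1* (limma). The intervals still allow differences of up to 17.5 points between the mutants. Both mutants were set against the same WT libraries, so their differences from WT are not independent of each other.

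The exons of other genes whose inclusion was most like that of each regulator were found by the mean absolute difference in PSI over the 9 libraries, among 495 exons. For *asd-1* these were *cbl-1* (a mean difference of 4.52 points) and *sfa-1*, which encodes splicing factor 1 (5.17 points). For *etr-1* the nearest was *asd-1* itself (5.46 points), followed by *cbl-1* (5.601 points). The nearest to *tiar-1* were *paic-1* (1.14 points) and *lec-9*, a galectin gene (1.76 points), each with a mean PSI near 1% in WT. For *mbl-1* they were F49E2.5 (4.29 points) and *kin-1*, which encodes a catalytic subunit of protein kinase A (4.38 points).

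A list of 47 names of other splicing regulators, chosen with results of these data known, is not independent evidence of a direction. It is described by counts and medians, with no test. Of these, 11 genes had an exon tested in *smg-1*, and 9 were called, 3 with higher and 6 with lower PSI than in WT, beside 12.8% of all 782 exons. In *smg-2*, 7 of 10 were called, 2 with higher and 5 with lower PSI, beside 15.1% of all 498. Their median difference from WT was -27.7 points in *smg-1*, beside -0.42 over all exons tested. For *smg-2* it was -26.8 points, beside -0.13 over all exons. These counts and medians include *sfa-1*, *hrp-2*, *rsp-4* and *rbm-39*, whose WT means lay outside the range of the mutant means. Such exons could be in these data only if their PSI changed in that direction. The counts and medians therefore carry the limit given for *tiar-1*.

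The members called lower in both mutants included RNA-binding proteins of several families. For *fubl-1*, of the FUBP family, the mean PSI of 20.8% in *smg-1* and 17.8% in *smg-2* stood against 85.8% in WT. For *sfa-1* it was 43.7% and 44.8%, against 95.3% in WT. For *hrp-2*, an hnRNP R and Q homolog, it was 62.4% and 54.6%, against 96.2% in WT. The others called lower in both were *fubl-3* and *hrpf-1*, and *ptb-1*, the worm polypyrimidine tract-binding protein, was called only in *smg-1*, its difference between mutants not being called. Of the SR proteins, *rsp-4* was called higher in both mutants, at a mean of 19.6% with *smg-1* and 24.9% with *smg-2*, against 3.06% in WT. *rbm-39* was higher in both as well, at 55.1% with *smg-1* and 62.0% with *smg-2*, against 3.32% in WT, and *rsp-7* was called higher in *smg-1* and was not tested in *smg-2*. The WT means of *sfa-1*, *hrp-2*, *rsp-4* and *rbm-39* lay outside the range of the mutant means in the tables, so the calls and direction of these 4 carry the same limit as those of *tiar-1*.

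Motifs of the families were counted on the transcribed strand in each exon and in up to 200 nt of each flanking intron, as a description. Downstream of the *asd-1* exon there was 1 TGCATG, the RBFOX motif, which 8.41% of 785 exons also had there. The same window held TGTGTG, a CELF-type repeat, at 2 overlapping positions (8.41% of exons had at least 1). Both lay in the farther part of the window, and with windows of 100 nt neither was found. The window is shown with both motifs in capitals, at chrIII:4199116-4199315.
asd-1 downstream intron: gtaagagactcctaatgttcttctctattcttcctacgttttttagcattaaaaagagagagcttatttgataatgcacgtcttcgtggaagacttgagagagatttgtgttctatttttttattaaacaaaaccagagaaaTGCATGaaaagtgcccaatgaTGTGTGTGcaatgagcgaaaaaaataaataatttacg

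The *etr-1* windows held no TGTGTG, and the upstream one held TTTTTT at 5 positions, not all in 1 run of U. At least 1 TTTTTT was found there for 45.9% of exons. With windows of 100 nt the upstream one held 1. The *mbl-1* exon held TGCT 4 times and CGCT once, which 34.5% and 21.8% of exons held at least 1 time, in exons of a median length of 102 nt. The other YGCY forms, TGCC and CGCC, were not counted. The intron downstream of the *tiar-1* exon, 135 nt in all, held 1 TTTTTT, and 49.7% of exons had at least 1 in that window. Downstream of *mbl-1* there were 5, of *asd-1* 3 and of *etr-1* 1. Motifs of other families were also found. GCATG, part of the RBFOX motif, was counted 1 time upstream of *asd-1* and 1 time upstream of *mbl-1* (12.2% of exons). The *asd-1* exon held TGCT 2 times and CGCT 1 time, and the intron upstream of *tiar-1* held each 2 times. The exons of the 4 regulators were richer in G and C (51.2% to 59.6%) than the median of all exons (43.8%).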

How the data were processed

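The authors aligned reads with STAR and measured splicing with JUM. The submitters' notes also name bedtools. The authors deposited usage, the fraction of an event's junction reads on the skipping junction, and PSI is the rest. The read counts were deposited as whole counts over that junction. Count divided by usage gave whole totals (to 6e-05) in 100% of cells only with the WT and mutant names of the count headers exchanged (26.8% and 25.9% as headed), and the counts were read that way. Columns of the authors' own tests were not used. Of the 620 *smg-2* exons, 122 repeated the *smg-1* values and were left out.

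PSI, limited to 1-99%, was tested as its logit with limma 3.58.1 (R 4.3.3), and reads with edgeR 4.0.16, a test added after seeing the data. Intervals of PSI differences come from limma on PSI itself. Both tests were checked on simulated data. The genes, the lists and the rule for named genes (all exons of the 4 genes, their 2 nearest exons, called members of the list) were chosen with earlier results of these data known. P-values measure the spread between biological replicates. The correlation of deviations from the group means was over 0.1 in each same-numbered pair of *smg-2* and *smg-1* (0.131, 0.110 and 0.101), in 2 of 3 pairs of *smg-2* and WT (0.0080, 0.116 and 0.160) and in none of *smg-1* and WT (0.091, 0.022 and -0.030). It was also over 0.1 between *smg-2* replicate 1 and *smg-1* replicate 2 (0.114). The other differently numbered pairs of the mutants had -0.187 to 0.047. Motifs were counted in 200 nt of each flanking intron, with 100 and 300 nt as alternatives. Exon coordinates came from the deposited event names, whose last position lies 2 bases before the downstream exon.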

Additional observations from a re-analysis of the deposited data

How the results depend on the processing

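Under every alternative run, *asd-1* and *etr-1* stayed called in both mutants and *mbl-1* in neither, and *tiar-1* in *smg-2* was lost only with a threshold of 20 points. With 5 points *tiar-1* was also called in *smg-1*. All calls of *tiar-1*, also those in the counts that follow, carry the limit given with its values. That they held across settings is therefore not a test of its rise. Over all exons, *smg-1* against WT gave 158 calls with 5 points and 56 with 20 points, and *smg-2* against WT gave 41 with 20 points. Leaving out 1 library gave 69 to 113 calls for *smg-1* against WT, with 2 to 3 of the 4 regulators. For *smg-2* against WT it gave 54 to 72 calls, with 3 of the 4, and between the mutants 0. With the replicate number as a block, 80 exons were called in *smg-1*, 63 in *smg-2* and 0 between the mutants, and no call of the 4 regulators changed. The block left the PSI differences as they were (-42.2 points for *asd-1* in *smg-1*, adjusted p = 0.0135, limma).

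Some small values changed sign when 1 library was left out. For *mbl-1*, *smg-2* minus *smg-1* ranged between -2.12 points (without *smg-2* replicate 3) and 5.76. The log2 fold change of its skipping reads with *smg-2* ranged between -0.26 and 0.017 (without *smg-2* replicate 1). That of the inclusion reads of *asd-1* ranged between -0.75 and 0.26 with *smg-1*, and between -1.01 and 0.00014 with *smg-2*, the highest of each without WT replicate 2. The cause was not tested. RLE scaling, DESeq2, the replicate block and a mean of at least 10 reads, all added after seeing the data, changed no call or sign of the junction reads of the 4 genes. edgeR on inclusion and skipping reads, added after seeing the data, called 3 exons between the mutants, where limma called 0. With 100 nt of each intron in place of 200, 0 TGCATG and 0 TGTGTG were counted for *asd-1* (1 and 2 with 200) and 2 TTTTTT for *etr-1* over both introns (6 with 200), and with 300 nt these counts were as with 200. Depth limits *asd-1* most, with 41 to 86 junction reads in WT libraries.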
